A study of Mus musculus with 24 samples.

Results

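The skeletal muscle contractile genes were 36 genes chosen by symbol from the count table of 25844 genes: the actins, myosins, troponins and their partners in the sarcomere, together with the calcium release machinery and the acetylcholine receptor of muscle. Each symbol belonged to 1 gene identifier. They were followed in forelimb buds of CD1 mouse embryos taken at gestation day 13 and kept in culture. The 6 groups were limb buds held for 3 h or 24 h with the solvent DMSO (control), with 1 µM or with 10 µM tert-butylphenyl diphenyl phosphate (BPDP), an organophosphate ester used as flame retardant and plasticizer, and each group had 4 libraries. By its title, the series asks about hedgehog signalling. All groups were whole limb buds after culture, so muscle cells were measured together with cartilage, connective tissue, skin and vessels, and no uncultured limb was among the libraries. The labels do not say whether replicates were separate litters or cultures, and every p-value here refers to the variation among the libraries themselves.

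In the embryonic limb, muscle precursors enter from the somites, express Myod1 and Myog, fuse into myotubes and build sarcomeres. Thin filaments of actin, tropomyosin and troponin slide along thick filaments of myosin, held in register by Z discs, titin and the M band. Acetylcholine from a motor nerve opens the receptor in the membrane, Cacna1s senses the change in voltage, and Ryr1 releases the calcium that troponin C binds. Embryonic limb muscle uses a developmental set of these proteins, such as Myh3, Myh8, the cardiac-type Actc1 and Tnnt2, and the fetal receptor subunit Chrng, before adult isoforms replace them.

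Among the 27025 promoters of the RefSeq table (GRCm38.p6, the patch release of the mm10 build), 29 of the 36 genes had an entry, and Tnni2, Xirp1, Myom2, Tnnt3, Neb, Chrnd and Ablim3 had none. The letters CAGCTG, the form of the E-box that myogenic factors are known to bind, stood within the 250 bases upstream of the start in 14 of the 29 promoters (48.3%), against 12.8% of all promoters. The looser form CANNTG, which includes CAGCTG, was in 86.2% against 66% of all. The letters CATTCC (the MCAT motif of TEAD factors) were in 7 of the 29 (24.1%, against 12.6%), searched like every motif on both strands. A CArG box (serum response factor) was in 3, Acta1, Actc1 and Myom1 (10.3%, against 1.4%), and a MEF2 box in 4, Casq2, Klhl41, Myh8 and Ttn (13.8%, against 3.01%). The 6 promoters below are 150 bases ending at the base before the start, 5′ to 3′ on the strand of the gene. They belong to the receptor gene that passed with 10 µM against control at 24 h, and to genes of the thin filament, thick filament and sarcomere turnover that rose in culture. Each shown window holds a match to a motif just named, and no annotated exon lies in its 250 upstream bases. They do not stand for all the genes with results: the windows of Myh3, Actn2 and Smpx, not shown, hold no such match apart from the looser E-box. Capitals mark the matches to the motifs just named other than the looser E-box, which are matches of letters and not measured binding.
Chrna1: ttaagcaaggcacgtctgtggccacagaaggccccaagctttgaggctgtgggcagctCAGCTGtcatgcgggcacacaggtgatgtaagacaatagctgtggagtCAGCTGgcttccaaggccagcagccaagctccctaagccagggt
Acta1: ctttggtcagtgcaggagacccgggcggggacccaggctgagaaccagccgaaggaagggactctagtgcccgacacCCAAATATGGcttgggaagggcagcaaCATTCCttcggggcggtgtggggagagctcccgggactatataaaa
Mylpf: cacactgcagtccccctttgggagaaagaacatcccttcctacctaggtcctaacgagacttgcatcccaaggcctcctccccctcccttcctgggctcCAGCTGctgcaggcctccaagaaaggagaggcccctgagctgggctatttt
Mybph: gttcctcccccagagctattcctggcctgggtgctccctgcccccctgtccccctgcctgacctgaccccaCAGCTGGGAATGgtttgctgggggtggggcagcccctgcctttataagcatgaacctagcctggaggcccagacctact
Klhl41: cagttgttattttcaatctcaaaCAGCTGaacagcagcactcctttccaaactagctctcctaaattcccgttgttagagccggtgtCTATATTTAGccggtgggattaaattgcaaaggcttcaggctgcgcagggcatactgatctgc
Myh8: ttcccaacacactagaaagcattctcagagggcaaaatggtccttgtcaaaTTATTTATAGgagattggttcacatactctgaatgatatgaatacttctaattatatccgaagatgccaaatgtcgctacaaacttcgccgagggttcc
These windows lie at chr2:73580339-73580488 (minus strand) for Chrna1, chr8:123894776-123894925 (minus) for Acta1, chr7:127211458-127211607 (plus) for Mylpf, chr1:134193298-134193447 (plus) for Mybph, chr2:69669970-69670119 (plus) for Klhl41 and chr11:67276974-67277123 (plus) for Myh8. Chrna1 held CAGCTG at 92 and at 44 bases before its start. Acta1 held its CArG box at 73 and CATTCC at 46 bases before the start.

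Library totals ran from 14165947 to 20823058 counts. The tissue fitted its label: the forelimb gene Tbx5 lay between 181 and 304 CPM (counts scaled to a common library total), and the hindlimb genes Tbx4 and Pitx1 between 14.8 and 23.3 CPM and between 1.88 and 11.3 CPM. Of 8 heart markers, Nppa, Myl7 and Nkx2-5 were at 0 in some libraries and below 0.59 CPM in all, and the 8 together summed to 6.47 to 18.9 CPM, so the cardiac-type isoforms below were measured in tissue with little heart RNA. Smooth muscle genes (8, with Des among them) summed to 302 to 389 CPM at 3 h. Several libraries stood apart. Control replicate 1 at 24 h was low in muscle RNA: the median contractile gene other than Ttn, Neb and Ryr1 was 0.42 (log2) under its group mean. Replicate 1 of 10 µM at 3 h and control replicate 2 at 24 h were high in long transcripts, by 0.35 and 0.30 (log2) over their group for genes of at least 10000 bases less genes under 2000 bases. Results that rest on them are given with and without them.

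The 36 genes together made up 0.318% of all counts in the 3 h controls and 0.634% in the 24 h controls. Their summed level was 3438, 3111, 3092 and 3074 CPM in the 3 h controls and 4790, 6433, 7166 and 6966 CPM in the 24 h controls. The 2 groups did not overlap, and the lowest 24 h library was replicate 1. In bulk tissue, more muscle cells and more RNA per muscle cell cannot be told apart.

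Per kilobase of transcript, the levels in the 24 h controls spanned a wide range. Actc1, the cardiac alpha actin that embryonic skeletal muscle also makes, was highest at 617 ± 108 RPKM (CPM per kilobase of transcript, SD, n = 4), followed by the fast regulatory light chain Mylpf at 518 ± 108 RPKM and the skeletal alpha actin Acta1 at 416 ± 55.0 RPKM. The first 2 lay within each other's SD. Troponin C1 (Tnnc1, 292 ± 69.5 RPKM), the tropomyosin Tpm2 (257 ± 43.5 RPKM), the slow troponin T Tnnt1 (244 ± 50.04 RPKM) and the light chain Myl1 (224 ± 51.3 RPKM) formed the next step and also lay within 1 SD of their neighbours. The embryonic myosin heavy chain Myh3 (112 ± 27.2 RPKM) exceeded the perinatal Myh8 (38.0 ± 4.98 RPKM) and the slow Myh7 (4.35 ± 1.24 RPKM). At the low end stood Ttn (2.88 ± 0.949 RPKM over 106824 bases), the actin-binding Xirp1 (1.01 ± 0.424 RPKM) and Ckm (0.694 ± 0.327 RPKM).

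A pair of genes typical of mature fast muscle had very few counts. Ckm, the muscle creatine kinase that buffers ATP, had 4 to 70 counts per library. Tnnc2, the fast troponin C, had 0 to 4 counts in every library, where 3 counts correspond to 0.144 to 0.212 CPM, so it never passed the low-count filter and no change could be detected at this depth. In the GENCODE vM21 annotation 74% of the exon bases of Tnnc2 are overlapped by Ube2c on the other strand. The sources used here do not say whether counting kept the strand, so reads of such overlaps cannot be told apart. The same holds for Mybph (49.9% of exon bases, Adora1), Cacna1s (20.0%, Gm37759), Ckm (16.4%, A930016O22Rik) and Myh7 (13.3%, Mhrt and others). The myosin heavy chains, and Acta1 with Actc1, are close paralogs whose reads the counting could have split.

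Which contractile genes rose during culture without BPDP was asked by comparing the controls at 24 h with those at 3 h. Of 35 genes tested 34 rose and none fell (edgeR quasi-likelihood test, adjusted p under 0.05), where 5.45% of all tested genes rose and 4.1% fell. The groups did not overlap, with 24 h higher, for 32 of the 35, against 6.91% of all genes. The median log2 fold change of the members was 1.05, and that of all tested genes was 0.01. Without the low control replicate 1 at 24 h the count stayed at 34 and the median was 1.15. Markers of other cells moved in the same comparison: 5 of 7 cartilage genes rose (Col2a1 by 1.03 ± 0.19; the 7 summed to 3396 to 4980 CPM at 3 h and 6091 to 9545 CPM at 24 h), 4 of 5 macrophage genes rose (61.4 to 80.8 and 102 to 142 CPM), and all 6 cell cycle genes fell (831 to 955 and 478 to 541 CPM). Their part in the rise was not tested.

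Thin filament genes rose unevenly. Acta1 had 265, 202, 196 and 210 CPM in the 3 h controls and 532, 524, 655 and 672 CPM in the 24 h controls, a log2 fold change of 1.47 ± 0.14 (SE, adjusted p = 1.1e-04). Every 24 h library was above every 3 h library. Actc1 went from 543, 476, 459 and 491 CPM to 715, 853, 1078 and 987 CPM (0.90 ± 0.15, adjusted p = 0.0020). Tpm2 (0.77 ± 0.14) and Neb, the giant protein that runs along the thin filament (0.87 ± 0.14), also rose. Acta1 thus made up 31.2 ± 1.46% of actin reads per kilobase (Acta1 plus Actc1) at 3 h and 40.4 ± 2.32% at 24 h in the controls (SD, n = 4). The groups did not overlap, and their means differed by 9.20 percentage points (exact permutation test, two-sided p = 0.0286, the smallest that 4 against 4 allows, and 0.114 after Benjamini-Hochberg adjustment over the 56 share comparisons made).

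**Figure D1:**
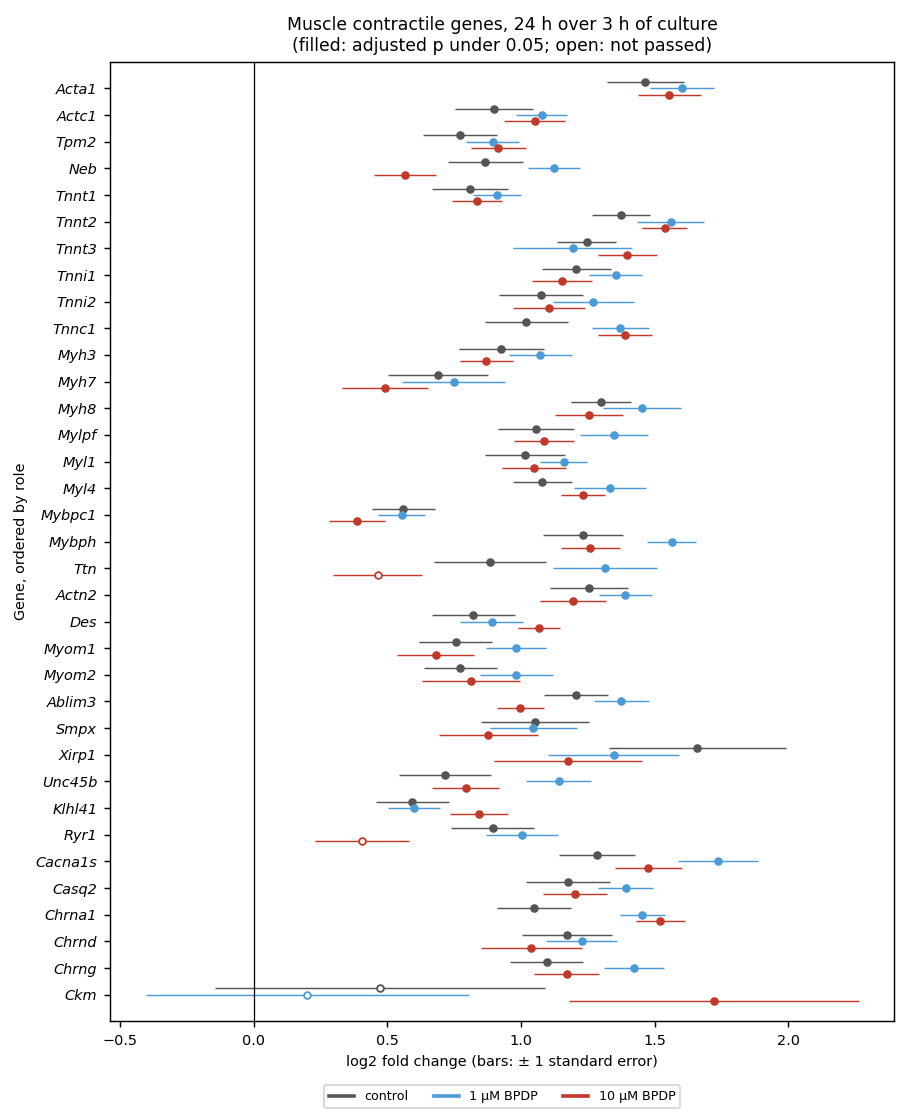
Log2 fold change of each tested contractile gene (rows, ordered by role) at 24 h over 3 h of culture, in control, 1 µM and 10 µM BPDP; bars are ± 1 SE, filled points passed adjusted p under 0.05. All 35 genes lie right of 0 at each dose, and the open points are Ckm in control and 1 µM and Ttn and Ryr1 in 10 µM.

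All 6 tested troponin genes rose in the controls. Tnnt2, the cardiac-type troponin T of embryonic muscle, went from 69.2, 65.4, 51.6 and 54.6 CPM to 134, 164, 169 and 150 CPM (log2 fold change 1.37 ± 0.11, adjusted p = 3.2e-05). Its share of troponin T reads per kilobase was 9.03 ± 1.01% at 3 h and 12.0 ± 0.918% at 24 h. The fast Tnnt3 rose by 1.25 ± 0.11, whereas the slow Tnnt1, the most abundant of the 3, rose by 0.81 ± 0.14. The inhibitory subunits Tnni1 (slow, 1.21 ± 0.13) and Tnni2 (fast, 1.07 ± 0.16) and Tnnc1 (1.02 ± 0.16) rose as well. Tnnt2 and Tnni1 are neighbours on chromosome 1, 25365 bases apart, and Tnnt3 and Tnni2 on chromosome 7, 54426 bases apart.

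All 8 thick filament genes rose, with log2 fold changes from 0.56 to 1.30. Myh3 had 380, 344, 354 and 353 CPM at 3 h and 437, 713, 739 and 812 CPM at 24 h (0.93 ± 0.16, adjusted p = 0.0029). Its lowest 24 h value, in replicate 1, still exceeded every 3 h value. Myh8 went from 101, 87.8, 102 and 92.8 CPM to 192, 236, 266 and 240 CPM (1.30 ± 0.11, adjusted p = 4.8e-05). Myh8 took 20.1 ± 0.787% of the reads per kilobase of the 3 heavy chains at 3 h and 25.1 ± 3.15% at 24 h, without overlap (exact permutation p = 0.0286, adjusted 0.114). Myh7 took 3.49 ± 0.347% and 2.81 ± 0.389%, and its groups overlapped (exact permutation p = 0.057, adjusted 0.19). Myh7 had the smallest margin of the rising genes (0.69 ± 0.19, adjusted p = 0.036), and its groups were close, 13.9 to 18.5 CPM at 3 h and 18.7 to 37.4 CPM at 24 h. Its call was lost without any 1 of the 3 h controls or without 24 h control replicate 4 (adjusted p 0.059 to 0.11). The light chains Mylpf (1.06 ± 0.14), Myl1 (1.01 ± 0.15) and Myl4 (1.08 ± 0.11) and the myosin-binding Mybph (1.23 ± 0.15) rose more than Mybpc1, the slow myosin-binding protein C (0.56 ± 0.12); these differences between genes were not tested.

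**Figure D2:**
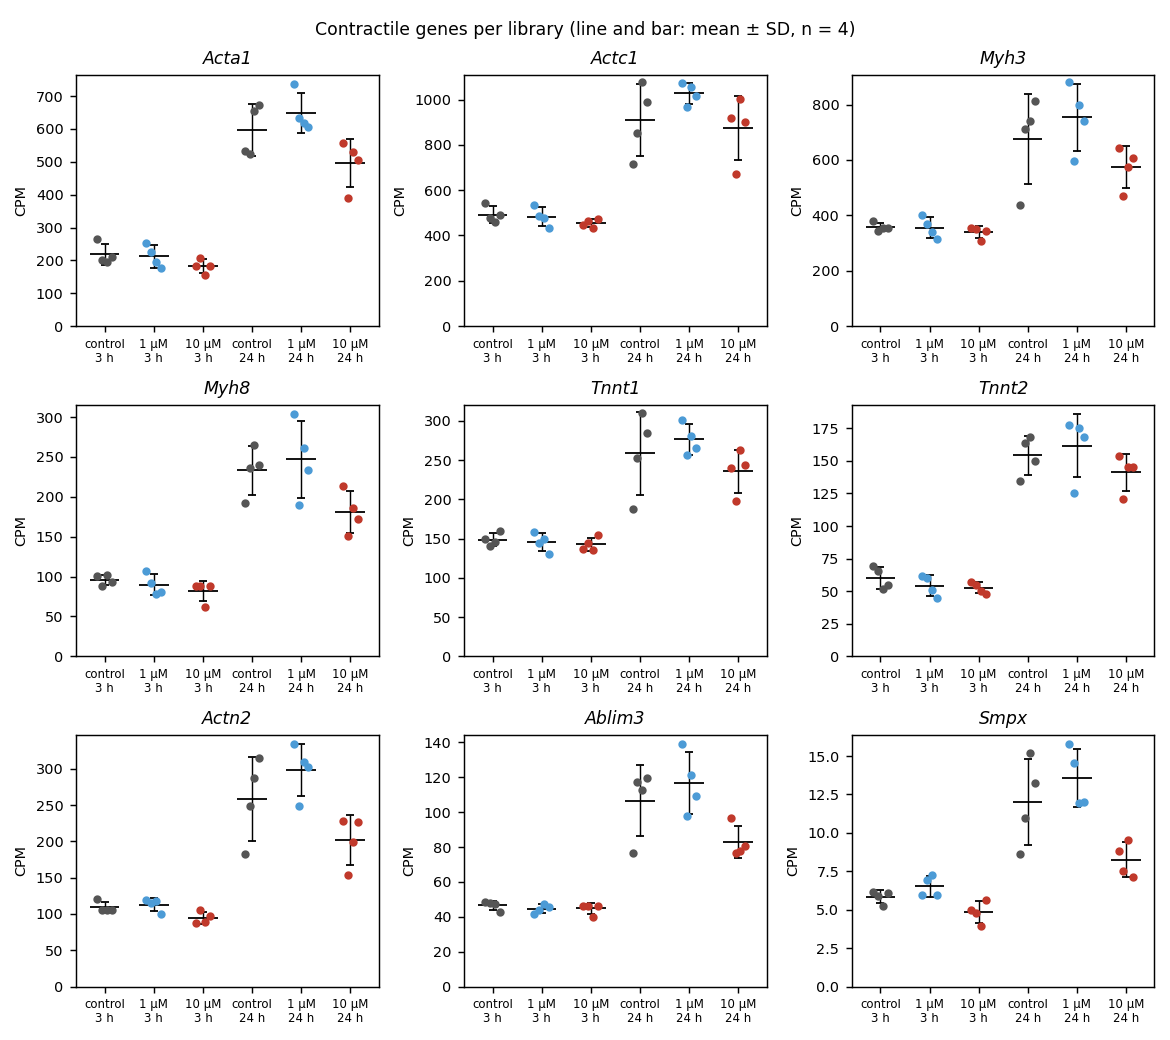
CPM of 9 contractile genes in each of the 24 libraries (points), by group on the x axis, with the mean ± SD (n = 4) as line and bar. The 24 h means lie above the 3 h means in each panel, and at 24 h the 10 µM points of Actn2, Ablim3 and Smpx lie under the 1 µM points.

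Genes of the Z disc, M band and their attachments all rose. Xirp1 had the largest change among the 36 genes in the controls, from 2.31, 1.76, 2.01 and 1.45 CPM to 2.46, 7.75, 5.78 and 7.66 CPM (1.66 ± 0.33, adjusted p = 0.0067), at a low level and with replicate 1 just above the 3 h range. Actn2, the alpha-actinin that anchors thin filaments in the Z disc, went from 120, 106, 106 and 105 CPM to 182, 249.1, 288 and 315 CPM (1.25 ± 0.15). The LIM protein Ablim3 (1.21 ± 0.12), the small stretch-associated protein Smpx (1.05 ± 0.20), the intermediate filament desmin (Des, 0.82 ± 0.16) and the M band proteins Myom1 (0.76 ± 0.14) and Myom2 (0.77 ± 0.14) followed. Ttn, the titin spring, rose by 0.88 ± 0.21 (adjusted p = 0.027), with 183, 163, 204 and 122 CPM at 3 h and 180, 428, 305 and 316 CPM at 24 h, which overlap. Its call was lost with replicate number as a block (0.85, adjusted p = 0.077), and without 3 h control replicate 2 or 4 or 24 h control replicate 2, 3 or 4 (adjusted p 0.056 to 0.081). Unc45b, a chaperone that folds myosin (0.72 ± 0.17), and Klhl41, a regulator of sarcomere protein turnover (0.59 ± 0.14), were among the smallest changes. The Unc45b call was lost without 3 h control replicate 1, 2 or 3 or 24 h control replicate 4 (adjusted p 0.051 to 0.072), and the Klhl41 call without 3 h control replicate 3 (adjusted p = 0.061).

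All 6 genes of excitation rose. Cacna1s, the voltage sensor, rose by 1.29 ± 0.14, Casq2, a calcium-binding protein of the sarcoplasmic reticulum, by 1.18 ± 0.16, and Ryr1, the release channel, by 0.89 ± 0.16. The receptor subunits Chrna1, Chrnd and Chrng rose by 1.05 ± 0.14, 1.17 ± 0.17 and 1.10 ± 0.14. Chrnd and Chrng are 4587 bases apart on chromosome 1. Ckm was the exception, at 1.79, 0.227, 0.434 and 0.413 CPM in the 3 h controls and 1.64, 0.928, 0.563 and 0.801 CPM in the 24 h controls (0.47 ± 0.62, adjusted p = 0.69). Its groups overlapped.

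Of 60 further muscle genes on a separate list, 51 were tested over time in the controls, 30 rose and none fell (5.45% and 4.1% of all tested genes), with a median log2 fold change of 0.75. Cox6a2, the muscle form of a respiratory chain subunit, rose most, by 1.56 ± 0.18, followed by the ubiquitin ligase Trim54 (1.35 ± 0.28), the Z disc proteins Myot (1.30 ± 0.22) and Ldb3 (1.29 ± 0.16), the protease Capn3 (1.29 ± 0.35) and caveolin 3 (Cav3, 1.26 ± 0.23). The tropomyosin Tpm1, at 383 to 430 CPM in the 3 h controls, stood at -0.13 ± 0.11 (adjusted p = 0.51), and the calcium pump Atp2a1 at 0.40 ± 0.13 (adjusted p = 0.075). The receptor subunit Chrnb1 had 0.63 ± 0.23 (adjusted p = 0.11), and Chrne, the adult subunit that replaces Chrng, was at 0 to 0.47 CPM in all libraries and was not tested.

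The rise over time was also measured within each dose. In 1 µM BPDP 34 of 35 contractile genes rose and none fell (12.2% of all tested genes rose and 9.9% fell), with a median log2 fold change of 1.23. In 10 µM 33 of 35 rose and none fell (16.8% of all tested genes rose and 14.9% fell), with a median of 1.07. Groups did not overlap for 33 genes at 1 µM (12.5% of all genes) and for 27 at 10 µM (11% of all genes). Acta1 rose by 1.60 ± 0.12 and 1.56 ± 0.12 at 1 and 10 µM, Tnnt2 by 1.56 ± 0.13 and 1.54 ± 0.09, and Chrna1 by 1.45 ± 0.09 and 1.52 ± 0.09. The share of Acta1 among actin reads was higher at 24 h at both doses too, by 8.31 and 7.82 percentage points. Ckm, among the 33, passed the test in 10 µM (1.72 ± 0.54, adjusted p = 0.024), from 0.278 to 1.06 CPM at 3 h to 0.763 to 3.52 CPM at 24 h. Its counts were 11, 21, 4 and 4 at 3 h and 70, 27, 22 and 12 at 24 h. It was under the low-count filter with 10 µM against control at 3 h. It thus entered the fit over time only through the 24 h libraries, where it was higher, and its call is no separate evidence of a rise. The Ckm value in 1 µM was 0.20 ± 0.61 (adjusted p = 0.85). The Ckm call in 10 µM was lost without 3 h replicate 3 or 4 or 24 h replicate 1 (adjusted p 0.071 to 0.14), within replicates 1 and 2 (0.091) or 3 and 4 (0.080), and in 1 fit of all 24 libraries (0.052). Myh7 passed in 10 µM (0.49 ± 0.16, adjusted p = 0.030) but not in 5 of 8 omissions of 1 library (3 h replicate 2, 3 or 4, 24 h replicate 3 or 4; adjusted p 0.066 to 0.11) or in 1 fit of all 24 libraries, and in 1 µM its call was lost without 3 h replicate 3 (adjusted p = 0.053).

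At 10 µM, Ttn (0.46 ± 0.17, adjusted p = 0.059) and Ryr1 (0.41 ± 0.18, adjusted p = 0.11) did not pass. Ttn had 341, 205, 195 and 185 CPM at 3 h and 311, 314, 292 and 259 CPM at 24 h, and the highest 3 h value belonged to replicate 1. Ryr1 had 93.1, 46.4, 60.6 and 53.9 CPM at 3 h and 88.0, 78.8, 71.1 and 72.2 CPM at 24 h, again with 3 h replicate 1 highest. In that library Ttn, Neb and Ryr1, the 3 longest transcripts of the list, were 0.60, 0.45 and 0.60 (log2 CPM) over their group mean, and the median of the other contractile genes was 0.10 over it. Long genes over the whole table were high in it as well, measured against short genes. Without this library Ttn rose by 0.68 (adjusted p = 2.0e-06), Ryr1 by 0.62 (adjusted p = 8.1e-05), and all 35 genes passed. With replicate number as a block both also passed, Ttn at 0.50 (adjusted p = 0.0012) and Ryr1 at 0.44 (adjusted p = 0.0024), and the count was again 35. DESeq2 called Ryr1 (adjusted p = 0.028), and Ttn also passed without 24 h replicate 4 (0.52, adjusted p = 0.049).

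**Figure D3:**
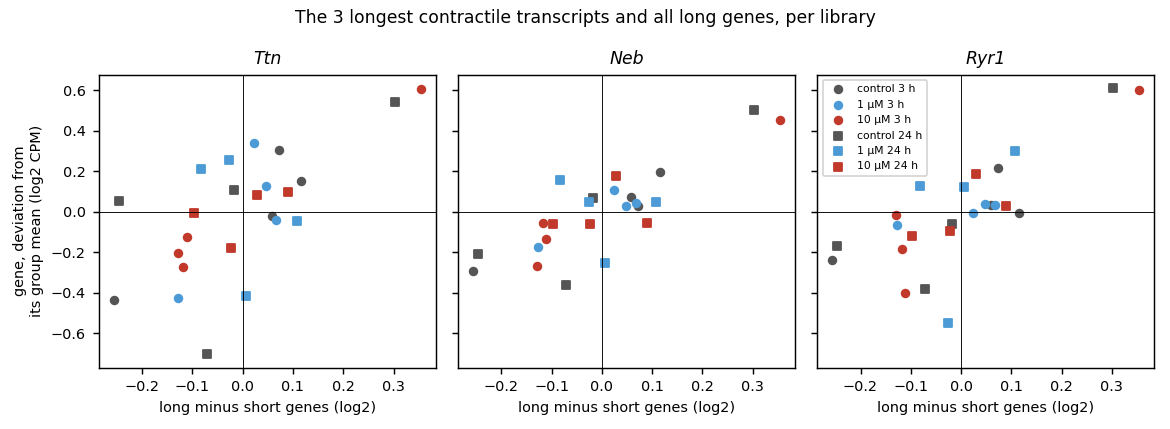
For each library, the deviation of Ttn, Neb and Ryr1 from their group mean (y axis, log2 CPM) against the deviation of long over short genes (x axis, log2; 279 genes of at least 10000 bases, 2890 under 2000 bases); colours and symbols give the group. Replicate 1 of 10 µM at 3 h (0.35) and control replicate 2 at 24 h (0.30) stand at the upper right in all 3 panels.

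In the 24 h controls, replicate 2 showed the same pattern, with Ttn 0.54, Neb 0.50 and Ryr1 0.61 over their group mean and the other members 0.05 over it. Replicate 1 was low in all of them, Ttn by 0.70 and the other members by 0.42. Over the whole table, its long genes less its short genes stood 0.07 (log2) under the group. Whether transcript length or RNA integrity had a part in these values was not tested.

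At 3 h, no contractile gene passed the test at either dose. With 1 µM, 0 of 35 passed (0% of all tested genes; edgeR quasi-likelihood), 1 had an unadjusted p under 0.05, DESeq2 called 0, and the median log2 fold change was 0.00. With 10 µM, 0 of 34 passed (0.00644% of all tested genes), 11 had an unadjusted p under 0.05, where 15.5% of all genes did, and DESeq2 called 0. The median at 10 µM was -0.17, and that of all tested genes 0.00. Acta1 had 183, 207, 155 and 183 CPM with 10 µM, overlapping the 3 h controls (-0.34 ± 0.12, adjusted p = 0.19), and the 6 tested troponins ranged from -0.37 to -0.13. Actn2 was lower without overlap, at 87.0, 105.4, 89.5 and 97.7 CPM against 105.47 to 120 CPM (-0.27 ± 0.09, adjusted p = 0.17), and was the 1 gene of 34 that was so (2.31% of all genes). Chrnd, at 8.93, 9.04, 9.95 and 11.0 CPM against 7.57 to 8.16 CPM, and Mybpc1 were the 2 that were higher without overlap (7.42% of all genes). Their log2 fold changes were 0.23 ± 0.15 and 0.13 ± 0.09, with adjusted p of 0.48 and 0.54. With 1 µM, Chrnd was the 1 gene that was higher without overlap (0.868% of all genes).

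At 24 h with 1 µM, 0 of 35 contractile genes passed (0.077% of all tested genes; edgeR quasi-likelihood), 6 had an unadjusted p under 0.05, where 5.89% of all genes did, and DESeq2 called 0. Of all tested genes 47.0% had a log2 fold change above 0, with a median of -0.01. Among the contractile genes it was above 0 for 33 of the 35, with a median of 0.16. That median rested on the replicates compared: it was 0.43 for the members within replicates 1 and 2, -0.07 within replicates 3 and 4, and 0.07 without control replicate 1. Ttn (0.47 ± 0.22), Cacna1s (0.44 ± 0.14) and Neb (0.36 ± 0.15) had the highest values after Chrna1, and none passed.

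Chrna1, the subunit of the acetylcholine receptor that carries most of the binding site for acetylcholine, was the 1 contractile gene that passed against control, with 10 µM at 24 h. The gene lies at chr2:73563215-73580338 on the minus strand in the coordinates of the deposited tables. At 24 h it had 30.7, 49.0, 48.8 and 43.0 CPM in the controls, 61.6, 57.2, 58.2 and 65.1 CPM with 1 µM, and 70.2, 58.2, 68.0 and 61.4 CPM with 10 µM. Every treated library exceeded every control. At 3 h the 12 libraries lay between 18.9 and 25.8 CPM and the groups overlapped. With 10 µM the log2 fold change at 24 h was 0.61 ± 0.13 (adjusted p = 0.016 by edgeR quasi-likelihood, 6.8e-04 by DESeq2 and 0.0052 with replicate number as a block). Without control replicate 1, the lowest, it was 0.49 (adjusted p = 0.013). The call was lost without 10 µM replicate 1 (0.57, adjusted p = 0.060), without 10 µM replicate 3 (0.57, adjusted p = 0.053), and within replicates 1 and 2 alone (0.73, adjusted p = 0.30).

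With 1 µM the log2 fold change of Chrna1 was 0.49 ± 0.13 (adjusted p = 0.44, and 0.033 in 1 fit of all 24 libraries), and it was the 1 gene of 35 whose groups did not overlap (1.83% of all genes, higher). The difference between the doses was 0.12 ± 0.10 (adjusted p = 0.65), and the effect of 10 µM at 24 h less that at 3 h was 0.46 ± 0.15 (adjusted p = 0.11). The neighbouring subunits differed less. With 10 µM at 24 h, Chrnd had 15.4, 13.1, 24.8 and 20.8 CPM against 12.8, 20.7, 16.2 and 21.3 CPM in the controls (0.08 ± 0.21, adjusted p = 0.87). Chrng had 50.7, 35.6, 45.1 and 48.8 CPM against 31.8, 46.1, 43.1 and 43.4 CPM (0.15 ± 0.13, adjusted p = 0.57). Both overlapped the controls.

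Chrna1 took 30.7, 32.1, 34.7 and 30.0% of the reads per kilobase of the 3 subunits in the 24 h controls, and 40.6, 43.5, 38.6 and 36.3% with 10 µM. The groups did not overlap, and their means differed by 7.85 percentage points (exact permutation test, two-sided p = 0.0286, 0.114 after adjustment over 56 comparisons). The difference was 10.6 points within replicates 1 and 2 and 5.10 points within replicates 3 and 4. Chrnb1, the remaining subunit of the fetal receptor, was at 0.11 ± 0.22 (adjusted p = 0.84).

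**Figure D4:**
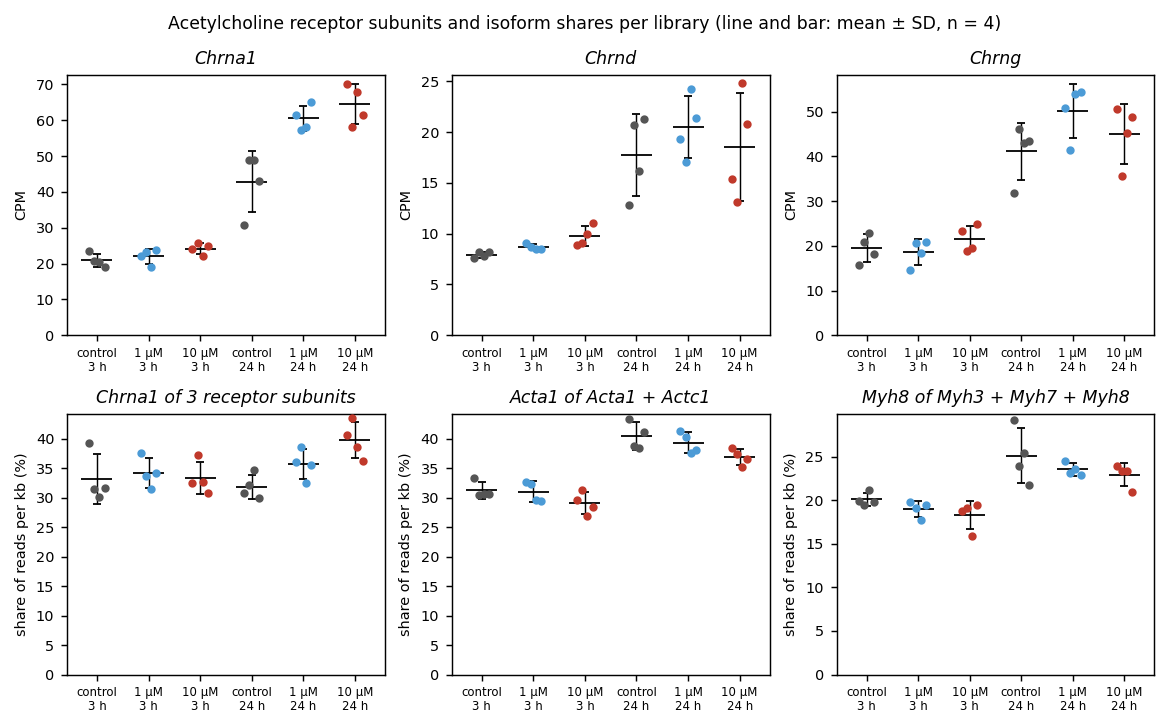
Upper row, CPM of Chrna1, Chrnd and Chrng in each library; lower row, shares (%) of reads per kilobase for Chrna1 among the 3 receptor subunits, Acta1 among actins and Myh8 among heavy chains; points are libraries by group, line and bar the mean ± SD (n = 4). At 24 h all treated Chrna1 points exceed the controls, and the 10 µM share of Chrna1 (36.3 to 43.5%) lies above the control share (30.0 to 34.7%).

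For the rest of the list with 10 µM at 24 h, 1 of 35 genes passed upward (Chrna1; 2.77% of all tested genes rose) and 0 downward (3.44% of all tested genes fell). By edgeR 5 had an unadjusted p under 0.05, where 20.8% of all genes did, and DESeq2 called 1. The log2 fold change was below 0 for 26 of 35, with a median of -0.12, against -0.02 for all tested genes. Without the low control replicate 1 the median of the members was -0.20 and 14 had an unadjusted p under 0.05, where 22.4% of all genes did. The median was -0.04 without control replicate 3, -0.07 without control replicate 4 and -0.04 without 10 µM replicate 2. Smpx (-0.53 ± 0.20, adjusted p = 0.15), Myh8 (-0.35 ± 0.12, adjusted p = 0.12), Ablim3 (-0.34 ± 0.12, adjusted p = 0.13) and Tnni2 (-0.35 ± 0.13, adjusted p = 0.13) were, with Xirp1 (-0.35 ± 0.32, adjusted p = 0.60), the lowest. Tnni2 was the 1 gene lower without overlap (7.87% of all genes), at 25.3, 21.5, 25.6 and 22.3 CPM against 31.5, 27.9, 33.4 and 28.4 CPM, and Chrna1 the 1 gene higher without overlap (5.63% of all genes). With replicate number as a block Myh8 passed as well (-0.36, adjusted p = 0.046), which gave 2 called genes. Within replicates 3 and 4, without the low control library, 6 of the members passed downward, Tnni1, Myh3, Myh8, Myl1, Actn2 and Ablim3, and Chrna1 upward. In that fit 490 of all 15543 tested genes fell and 463 rose. Within replicates 1 and 2 no member passed. Without control replicate 1 Ablim3 passed (-0.46, adjusted p = 0.011). Acta1 made up 36.9 ± 1.35% of actin reads with 10 µM against 40.4 ± 2.32% in the controls, with the groups barely apart at 38.451 and 38.458% (exact permutation p = 0.0286, adjusted 0.114).

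Other marker lists were measured between the same groups. At 24 h the 6 cell cycle genes summed to 478 to 541 CPM in the controls and 248 to 281 CPM with 10 µM, and all 6 fell. The 5 macrophage genes measured summed to 102 to 142 CPM and 35.7 to 52.3 CPM, and 4 fell. The 5 endothelial genes summed to 196 to 235 CPM and 132 to 154 CPM, and 3 fell. The sums overlapped for the 8 smooth muscle genes (343 to 608 and 546 to 717 CPM) and the 7 cartilage genes (6091 to 9545 and 8744 to 12080 CPM). Their part in the values of the contractile genes was not tested.

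The doses were compared with each other at 24 h in 1 fit of all 24 libraries. The 10 µM libraries were lower for 3 of 35 contractile genes, Ablim3, Actn2 and Smpx, and higher for 0 (2.13% of all tested genes were lower and 1.22% higher). They are 3 of the 8 sarcomere frame genes; of the others, Xirp1 (-0.65 ± 0.28, adjusted p = 0.22) and Des (-0.05 ± 0.14, adjusted p = 0.92) did not pass. The log2 fold change was below 0 for 33 of 35, with a median of -0.32. Of all tested genes 48.2% were above 0, and their median was -0.01. Among the members 19 had an unadjusted p under 0.05, where 16.5% of all genes did.

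Ablim3 had 139, 97.8, 122 and 109 CPM with 1 µM and 96.6, 76.8, 77.7 and 80.5 CPM with 10 µM (-0.47 ± 0.11, adjusted p = 0.013). The groups did not overlap, and the controls, at 76.6 to 120 CPM, overlapped both. Actn2, at chr13:12269426-12340760 on the minus strand, had 333, 248, 309 and 302 CPM with 1 µM and 228, 153, 199 and 227 CPM with 10 µM, without overlap (-0.54 ± 0.14, adjusted p = 0.034). Smpx, at chrX:157698910-157752591 on the plus strand, had 15.8, 14.6, 12.0 and 12.0 CPM with 1 µM and 8.84, 7.53, 9.53 and 7.12 CPM with 10 µM, without overlap (-0.69 ± 0.17, adjusted p = 0.023). In fits of 1 dose and its controls none of the 3 passed. In the 24-library fit used for this contrast, Ablim3 (-0.35, adjusted p = 0.035) and Smpx (-0.54, adjusted p = 0.044) passed with 10 µM against control as well. With replicate number as a block Neb (-0.41, adjusted p = 0.048) and Tnni2 (-0.49, adjusted p = 0.026) passed as well, 5 members in all.

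These calls rested on single libraries. Without 1 µM replicate 1, the library with the highest summed level at 24 h (8060 CPM), or without 10 µM replicate 2, the lowest (4770 CPM), 0 of the members passed. Ablim3 was lost in those 2 of 8 omissions, Smpx in 4 (also without 1 µM replicate 2 or 10 µM replicate 4) and Actn2 in 5 (also without 1 µM replicate 3 or 4 or 10 µM replicate 3). Actn2 did not pass without the low-count filter (adjusted p = 0.054). Without 1 µM replicate 4, 5 members passed. The summed level was 8060, 6832, 7146 and 6814 CPM with 1 µM and 6124, 4770, 6118 and 5809 CPM with 10 µM, so the 2 doses did not overlap, and the controls at 4790 to 7166 CPM overlapped both.

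**Figure D5:**
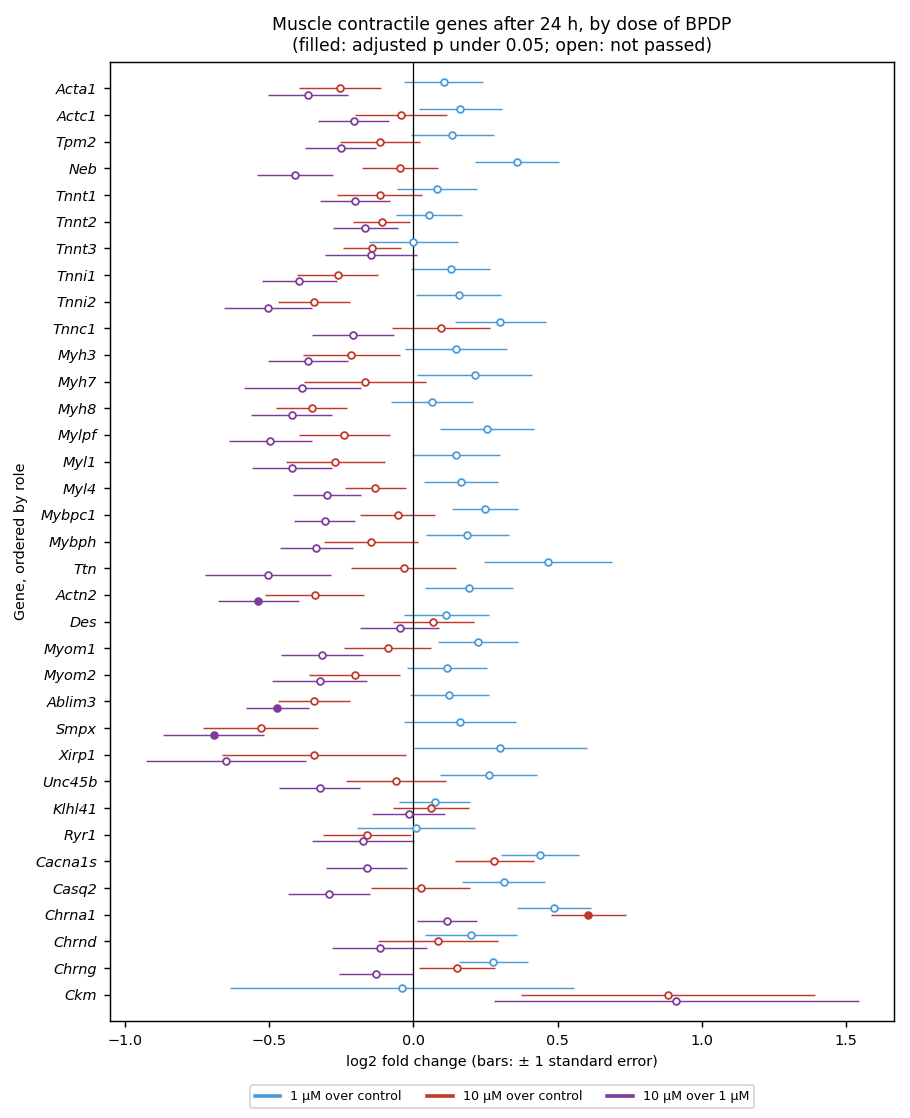
Log2 fold change of each tested contractile gene (rows, ordered by role) at 24 h for 1 µM over control, 10 µM over control and 10 µM over 1 µM; bars are ± 1 SE, filled points passed adjusted p under 0.05. The filled points are Chrna1 for 10 µM over control (0.61) and Actn2, Ablim3 and Smpx for 10 µM over 1 µM.

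Whether the effect of 10 µM differed between the times was tested as an interaction. By edgeR 0 of 35 contractile genes passed (2.59% of all tested genes), 1 (Chrna1) had an unadjusted p under 0.05, where 14.3% of all genes did, and DESeq2 called 0. The median of the members was 0.02. Chrna1 passed without control replicate 3 at 24 h (0.56, adjusted p = 0.040).

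On the list of further muscle genes, 2 of 51 tested fell with 10 µM at 24 h and none rose, a share close to that of all tested genes (3.44% fell). Capn3 had 4.68 ± 0.977 CPM in the controls and 2.001 ± 0.671 CPM with 10 µM (SD, n = 4; -1.20 ± 0.30, adjusted p = 0.031), and Myot 11.3 ± 2.20 and 6.51 ± 0.824 CPM (-0.78 ± 0.19, adjusted p = 0.026). Against 1 µM, the adult fast myosin heavy chain Myh1 (-1.06 ± 0.26, adjusted p = 0.022) and the muscle glycogen phosphorylase Pygm (-0.61 ± 0.15, adjusted p = 0.023) were lower with 10 µM. Myh1 was a minor transcript, at 4.02 ± 0.848 CPM in the 24 h controls.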

How the data were processed

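Poly-A RNA of 24 cultured forelimb bud libraries (6 groups of 4) was sequenced. Per the submitters' processing notes, the tools were STAR 2.5, CASAVA 1.8, DESeq2 (listed with version 2) and HTSeq 0.6.1, on the mm10 build. The authors deposited 5 pairwise tables of raw read counts per gene with gene lengths, joined here by identifier (0 values differed between tables). A further 50 columns (FPKM, group means) were not used. No 2 libraries of a group were near copies (lowest chi-square per degree of freedom 4.70).

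Groups came from the labels. Pairs of groups were fitted with the edgeR 4.0.16 quasi-likelihood test in R 4.3.3 (TMM, robust; filterByExpr with minimum count 10 and minimum total 15), and p-values were Benjamini-Hochberg adjusted over all genes tested. The dose contrast and the interaction came from 1 fit of all 24 libraries. "Passed", "rose" and "fell" mean adjusted p under 0.05. CPM is counts over library total, RPKM divides by the deposited gene length, and shares are per kilobase; share comparisons and their alternatives were chosen after seeing the data. The edgeR test was tried on simulated counts of independent libraries, drawn from 10 µM and control at 24 h. Same-numbered libraries that deviate together were not simulated. Changes as small as those of the contractile genes between doses were not simulated either. Library depth was 14165947 to 20823058 counts, and the SE covers counting error and variation between libraries.

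The genes and lists were chosen with earlier results of these data known. All 36 genes could be named; of the further muscle genes up to 6 called and 4 not called per comparison, and of other lists the 4 highest by CPM. Values per library are given for genes that passed against control, 1 to 3 per role, and those apart from their role; Tbx4, Pitx1, Nppa, Myl7, Nkx2-5 and the regulators other than Mef2c, Myog, Mef2a and Mef2d were named after their values were seen.

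Same-numbered libraries deviated together over all genes (r 0.106 to 0.361, over 0.1 in 4 of 4 pairs) in the 6 comparisons other than control over time (0.0854 to 0.345, 3 of 4 pairs), so a block by replicate was an alternative. Other alternatives were DESeq2 1.42.0, its size factors, no filter, all libraries in 1 fit, replicates 1 and 2 apart from 3 and 4, and leaving out each library. The motif search read RefSeq promoters, and exon overlaps came from GENCODE vM21.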

Additional observations from a re-analysis of the deposited data

Results flagged for a closer look

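In groups of 4 libraries, the highest or lowest library was set against its nearest neighbour, relative to the range (Dixon's criterion at its 95% critical value). Of 216 groups tested 16 were marked, and chance marks about 1 in 20. Whether anything but chance is behind them was not tested.

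Among the 3 h controls, replicate 1 had the highest summed level of the 36 genes, 3440 CPM against 3110 CPM in the next library, the highest Actn2 (120 against 106 CPM) and the highest Ckm (1.79 against 0.434 CPM). Replicate 4 had the highest Unc45b (15 against 13.9 CPM).

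With 10 µM at 3 h, replicate 1 had the highest Ttn (341 against 205 CPM) and Mybpc1 (40.9 against 34.9 CPM), and Ttn is the longest transcript of the list. Replicate 3 had the lowest Myh8 (62.3 against 87.9 CPM), Myl4 (74.3 against 92.6 CPM) and Ablim3 (40.2 against 46.2 CPM), and the lowest summed level of its group (2729 CPM).

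Among the 24 h controls, replicate 1 had the lowest Ablim3 (76.6 against 113 CPM) and Casq2 (46.7 against 75.8 CPM). With 1 µM at 24 h, replicate 1 had the highest Des (206 against 165 CPM) and Ckm (2.36 against 0.537 CPM), and replicate 2 the lowest Mybph (77.7 against 94 CPM). With 10 µM at 24 h, replicate 1 had the highest Neb (92 against 78.4 CPM) and Unc45b (26.6 against 20.6 CPM).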

How the results depend on the processing

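The direction of no called value turned under any alternative run. Leaving out 1 library at a time, the members called over time numbered 31 to 34 in control, 33 to 34 in 1 µM and 31 to 35 in 10 µM, and their medians stayed between 0.94 and 1.30. Within replicates 1 and 2 alone, 3 members were called in control, with a median of 0.83. In the same replicates 32 were called in 1 µM and 26 in 10 µM, where the median was 0.91. Within replicates 3 and 4 alone, 34 were called in control, with a median of 1.24. All these fits hold fewer libraries than the main ones.

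With 10 µM against control at 24 h, 2 members were called with the replicate block, 0 within replicates 1 and 2, 7 within replicates 3 and 4, 3 in 1 fit of all libraries, and 0 to 2 with 1 library left out. With 1 µM at 24 h, 1 was called in 1 fit of all libraries, and the median was 0.43 in the first 2 replicates and -0.07 (-0.0684) from replicates 3 and 4. For 10 µM against 1 µM, 5 were called by DESeq2, 5 with the replicate block, and 0 to 5 with 1 library left out. Within replicates 1 and 2, 1 was called, Mylpf, and Ablim3, Actn2 and Smpx were not. Within replicates 3 and 4, 3 were called, Ablim3, Actn2 and Ryr1, and Smpx was not. For the interaction 0 to 1 were called with 1 library left out. The block changed no other count by over 1.5 times. The causes of the differences between the runs were not tested. Ckm and Tnnc2 had few counts, and the part of depth and of exon overlap in this was not tested.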

Other observations

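Of 10 tested genes on a list of myogenic regulators, most of them transcription factors, 5 rose from 3 h to 24 h in the controls and none fell. Of all tested genes 5.45% rose and 4.1% fell. The median log2 fold change of the listed genes was 0.50. Mef2c, a factor that acts with the myogenic factors, rose by 0.93 ± 0.12, from 102 ± 18.1 to 192 ± 21.7 CPM (SD, n = 4), Mef2a by 0.58 ± 0.10, Mef2d by 0.51 ± 0.11, and Myog, the factor of terminal differentiation, by 0.52 ± 0.09, from 109 ± 4.24 to 155 ± 22.8 CPM. Myod1 was at -0.07 ± 0.11 (adjusted p = 0.76). Myf6 rose by 1.58 ± 0.45 at a low level, 0.412 ± 0.133 CPM at 3 h and 1.24 ± 0.212 CPM at 24 h.

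With 10 µM at 24 h 1 of 9 tested rose and 1 fell, where 2.77% of all tested genes rose and 3.44% fell. The early factor Myf5 fell by 0.73 on the log2 scale (SE 0.19, adjusted p = 0.039), from 9.69 ± 1.79 to 5.77 ± 0.679 CPM, and Mef2a rose by 0.30 ± 0.08 (adjusted p = 0.048), from 111 ± 14.3 to 135 ± 6.48 CPM. Myog had 155 ± 22.8 and 160 ± 12.5 CPM (adjusted p = 0.78), and Myod1 73.4 ± 13.2 and 86.9 ± 8.51 CPM (adjusted p = 0.21).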
